A study of Mus musculus with 18 samples.

Results

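The collagen genes of the mouse were followed in left ventricle of wild-type (WT) mice and of mice that overexpress Gαq in the heart, on a control diet (CD) or on chow with the SGLT2 inhibitor ertugliflozin (ERTU). Of 55450 genes in the count table, 44 protein-coding genes carry a collagen chain symbol, and 36 of them had a mean of at least 10 read pairs over the 18 libraries and were taken. They were sorted by protein class into 9 fibrillar chains (of 11 with such a symbol), 6 basement membrane chains (of 6), 2 network chains (of 3) and 19 others (of 24). The others were 5 beaded filament chains, 6 fibril-associated chains (FACIT), 2 multiplexins, 3 transmembrane chains and 3 remaining ones. The members nearest to the threshold were Col26a1 and Col9a2, with mean counts of 16.2 and 16.4, and the genes just below it were Col9a3 and Col17a1, with 8.78 and 8.44. All 36 passed the filter on low counts.

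The 18 libraries comprised 5 of Gαq CD, 4 of Gαq ERTU, 4 of WT CD and 5 of WT ERTU, each from left ventricle of male FVB/N mice. Gαq mice carry a transgene that is active in the heart muscle, and the WT mice were their littermates. ERTU was given for 16 weeks from the age of 4 weeks at 0.5 mg per g chow, and CD mice were of the same genotypes and age. The number of a library runs over the whole series, and values below stand in the order 1, 2, 4 and 5 for WT CD, 11 to 15 for WT ERTU, 6 to 10 for Gαq CD and 16, 17, 18 and 20 for Gαq ERTU. Depth was 15383566 to 20908363 read pairs per library. Gnaq, the gene of the transgene, was at 45.5 to 230 CPM (counts scaled to the library total) in WT and at 1641 to 11670 CPM in Gαq libraries, which matched the labels. Heart muscle markers were high throughout, Myh6 at 25000 to 52900 CPM. In WT CD library 5 collagen genes took 0.416% of all counts, against 0.240% to 0.248% in the other WT CD libraries. That library was also the lowest of all in the heart muscle gene Tnnt2 (6990 against 9120 CPM or more elsewhere), and the atrial gene Myl7 stood at 78.2 CPM there. Counts of called genes, the fold changes of the main members and the class sums are also given without it.

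Collagens are trimeric proteins of the extracellular matrix. In the heart, fibrillar collagens of types I and III, made mainly by fibroblasts, form the interstitial fibres that carry load between muscle cells. Type IV collagen forms the sheet of the basement membrane around each muscle cell and capillary, with the α1 and α2 chains as its common form. Beaded filament collagen of type VI links basement membrane to fibres, network collagen of type VIII lies around vessels and in remodelling tissue, and FACIT collagens sit on the surface of fibrils. A rise of fibrillar collagen is a known part of cardiac fibrosis.

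Levels were spread over nearly the whole scale from 106 to 0.110 CPM per kb of the principal transcript (mean of 18 libraries). Col4a1 led with 19.2% of the summed level of all 36 genes, followed by Col4a2 with 14.3%, Col1a2 with 12.6% and Col3a1 with 12.3%. With Col6a2, Col6a1, Col1a1 and Col15a1 these 8 genes held 83.3% of the sum. At the other end stood Col22a1, Col11a1 and Col7a1. Neighbours in this order often did not differ beyond their spread: Col1a2 ranged from 39.0 to 116 CPM per kb over libraries and Col3a1 from 27.2 to 135. Chains that combine in one protein were not always equal in level. Col1a1, of which type I collagen holds 2 chains for each Col1a2 chain, was at 0.347 to 0.563 times the level of Col1a2 per kb. This ratio depends on the length used and would be higher with all annotated exons. Col1a2 has 5348 bases in the principal transcript and 12426 over all exons, and Col1a1 has 5930 and 6563.

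**Figure D1:**
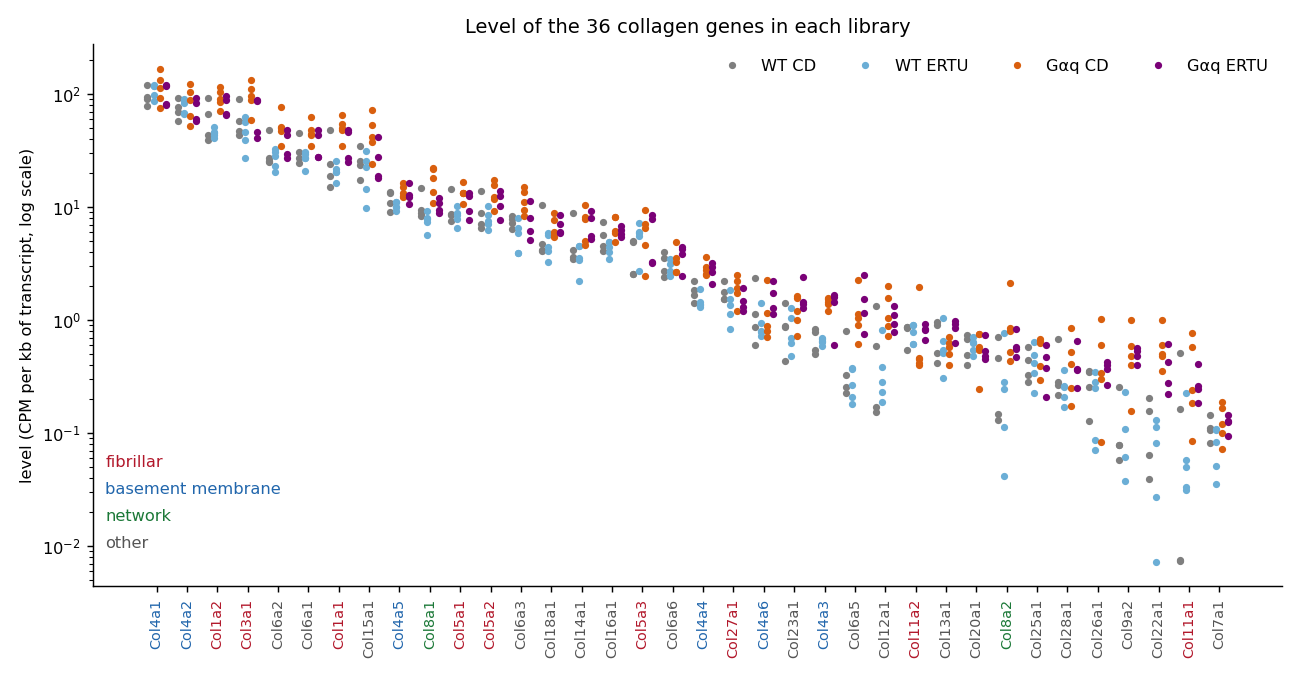
Level of each of the 36 collagen genes (CPM per kb of transcript, log scale) in each library, ordered by mean level, with points coloured by group and names coloured by class. Col4a1 (mean 106) is the highest and Col7a1 (mean 0.110) the lowest, and the Gαq points of Col22a1 lie above all WT points. The 1 library in which Col9a2 had no read pair is not drawn.

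Type IV genes are arranged in head-to-head pairs that are read in opposite directions from a common start region, and the starts are shown here because by genotype neither gene of 1 pair was called, both of another were, and 1 of 2 in the third. In the annotation (GRCm38), the Col4a1 and Col4a2 genes on chromosome 8 overlap by 22 bases at their starts, 71 bases lie between the starts of Col4a4 and Col4a3 on chromosome 1, and 1308 bases lie between Col4a6 and Col4a5 on chromosome X. The RefSeq start windows (GRCm38.p6, 250 bases before to 50 after the start, read along the strand of the named gene) of Col4a1 at chr8:11312777-11313076 and of Col4a4 at chr1:82586800-82587099, both on the minus strand, are:
Col4a1: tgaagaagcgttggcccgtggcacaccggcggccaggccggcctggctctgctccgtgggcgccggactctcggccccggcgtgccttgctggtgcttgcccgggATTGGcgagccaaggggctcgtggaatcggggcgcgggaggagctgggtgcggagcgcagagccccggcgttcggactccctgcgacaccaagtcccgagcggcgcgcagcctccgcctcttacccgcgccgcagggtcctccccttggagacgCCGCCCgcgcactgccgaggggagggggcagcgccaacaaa
Col4a4: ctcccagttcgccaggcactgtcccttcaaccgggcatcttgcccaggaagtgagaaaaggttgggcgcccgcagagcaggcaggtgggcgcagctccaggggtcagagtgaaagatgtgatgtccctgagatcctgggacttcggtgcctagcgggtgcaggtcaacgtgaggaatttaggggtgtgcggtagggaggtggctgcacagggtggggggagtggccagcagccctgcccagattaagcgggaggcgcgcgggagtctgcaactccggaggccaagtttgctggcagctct
The start of the named gene is at position 251 of each window. The start of the partner falls inside the same window, at position 272 for Col4a2 and at position 179 for Col4a3. Capitals mark a CCAAT box (CCAAT, or ATTGG on the other strand) and a GC box (GGGCGG or CCGCCC): the Col4a1 window holds 1 of each and the Col4a4 window none. G and C make up 74.0% of the Col4a1 window and 63.3% of the Col4a4 window. Of the 36 members 29 had a start window. Of these, 21 (72.4%) held a GC box, against 35.7% of 32851 windows of the genome, 10 (34.5%) a CCAAT box, against 37.4%, and 3 (10.3%) a TATA box (TATAAA or TTTATA), against 13.6%. The 3 with a TATA box were Col3a1, Col11a2 and Col13a1. These letters are a description of the windows and say nothing of binding.

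The first question was how collagen genes differed between Gαq and WT over both diets (9 against 9 libraries). Of the 36 genes, 20 were higher in Gαq and 0 lower (edgeR quasi-likelihood test, adjusted p under 0.05), which is 55.6%, where 9.72% of all 16270 genes tested were higher and 9.92% lower. The log2 fold change was above 0 in 35 of 36, with a median of 0.52 against 0.0038 over all genes tested. Members vary together within a library, so that these counts are not independent observations. At an unadjusted p under 0.05 there were 24 higher and 0 lower, and DESeq2 called the same 20 higher and 0 lower. Higher genes were found in every class: 5 of 9 fibrillar, 3 of 6 basement membrane, 2 of 2 network and 10 of 19 other chains. By size the largest differences belonged to chains of low level, Col22a1 (5.12-fold), Col9a2 (4.89-fold) and Col6a5 (3.97-fold), whereas Col4a1 and Col4a2, the members of highest level, did not pass. Col9a2 reached the threshold on the mean count through Gαq, with a mean of 5.11 read pairs in WT and 27.8 in Gαq, so that the choice of members favours its difference. No other member had a mean under 10 in either genotype, and without Col9a2 there were 19 higher genes of 35 (54.3%). Only Col22a1 had every Gαq library above every WT library, as did 1.73% of all genes. Without WT CD library 5 there were 22 higher genes, the same 20 with Col11a1 and Col18a1, and the log2 fold change was 1.07 for Col1a1 (0.87 with it), 0.85 for Col1a2 (0.72), 0.70 for Col6a2 (0.59), 0.67 for Col8a1 (0.59), 0.94 for Col14a1 (0.73) and 1.70 for Col12a1 (1.30). Calls over all genes in either direction were 3338 without that library, against 3196 with it. WT CD library 5 was singled out in part for its high collagen share, so that leaving it out favours a larger difference. Gαq CD library 9 had the highest share of all libraries (0.565%). Without it 17 collagen genes were higher, with 3149 calls over all genes. Over the fits without 1 library the count of collagen genes called was 14 to 22. In whole tissue, more cells of a collagen-making type and more RNA per cell cannot be told apart. The p-values set a difference of means against the spread between libraries that the model leaves, estimated over all libraries together.

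**Figure D2:**
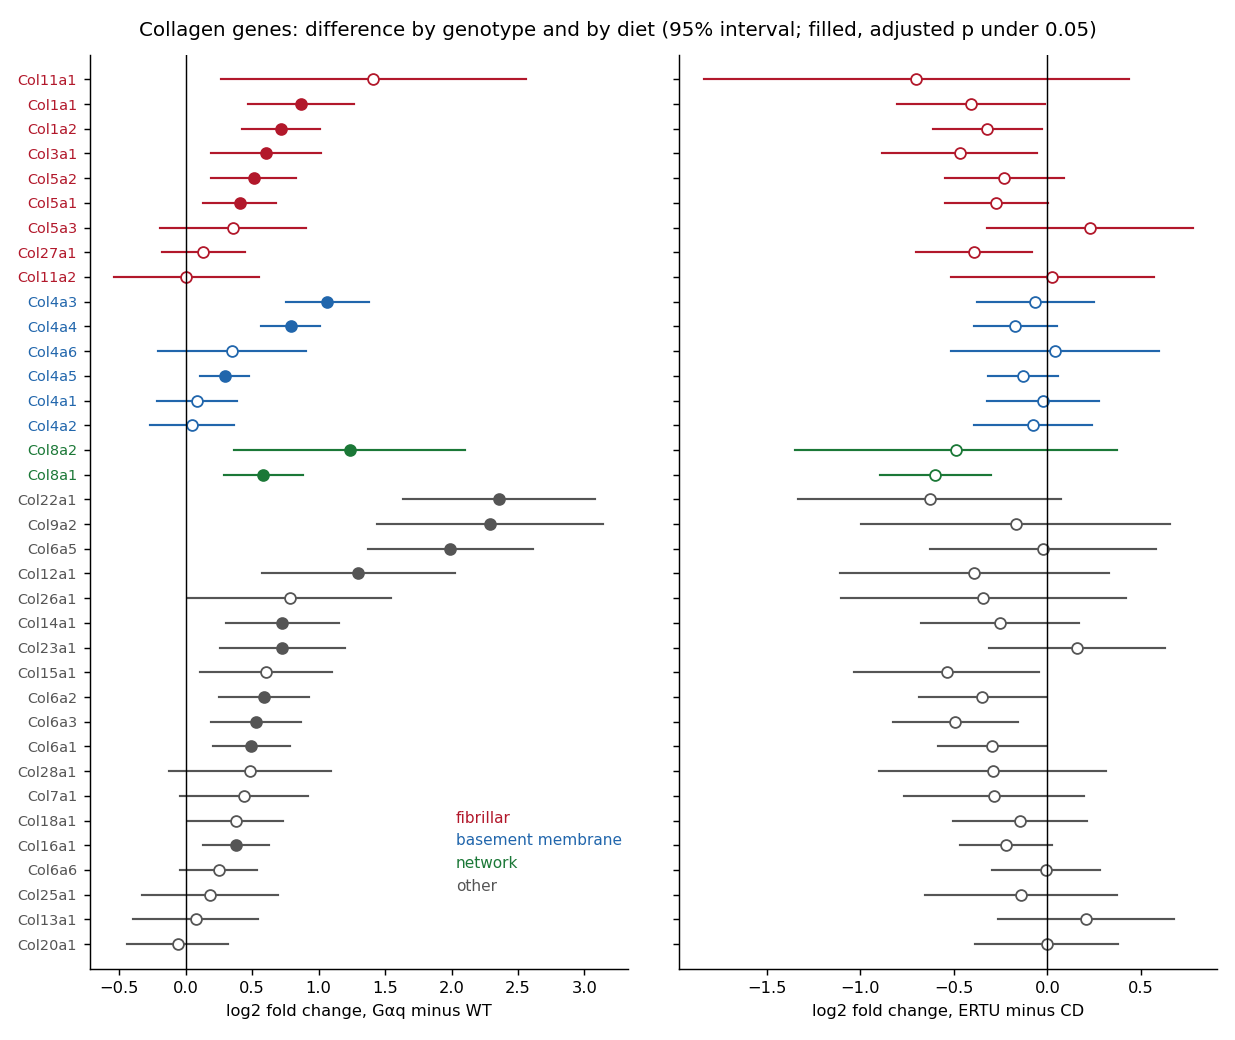
Log2 fold change of each collagen gene by genotype (Gαq minus WT, left) and by diet (ERTU minus CD, right), with 95% intervals from edgeR, ordered within class. Filled points have an adjusted p under 0.05: 20 by genotype, all to the right of 0, and 0 by diet, where 31 of 36 points lie to the left of 0.

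Fibrillar chains were led by the type I and type III genes. Col1a2 (ENSMUSG00000029661, chr6:4504814-4541544, plus strand), the α2 chain of type I collagen, was at 355, 209, 232 and 491 CPM in WT CD, 218, 274, 241, 232 and 248 in WT ERTU, 456, 483, 559, 619.8 and 378 in Gαq CD and 349, 475, 357 and 514 in Gαq ERTU. Of the 9 WT libraries 7 were below all Gαq libraries, WT CD library 1 lay between the lowest Gαq values, and WT CD library 5 lay within the Gαq range. The log2 fold change by genotype was 0.72 ± 0.14 (SE, adjusted p = 0.000863). Col1a1 (ENSMUSG00000001506, chr11:94936224-94953042, plus strand), the α1 chain of the same protein, was at 143, 112, 89.2 and 288 CPM in WT CD, 96.1, 152, 120.4, 128 and 121 in WT ERTU, 284, 296, 321, 387 and 207 in Gαq CD and 149.6, 286, 161 and 273 in Gαq ERTU. Here WT CD library 5 stood in the midst of the Gαq libraries, and Gαq ERTU libraries 16 and 18 were close to the upper WT values. The difference was 0.87 ± 0.19 (SE, adjusted p = 0.00236). Col3a1 (ENSMUSG00000026043, chr1:45311538-45349706, plus strand), the chain of type III collagen, was at 262, 323, 242 and 505 CPM in WT CD, 151, 348, 318, 217 and 256 in WT ERTU, 530.2, 496, 613, 749 and 329 in Gαq CD and 227, 496, 259.8 and 484 in Gαq ERTU. The groups overlapped more than for type I, and the difference of 0.61 ± 0.20 (SE, adjusted p = 0.0353) was lost in 9 of 18 fits that left out 1 library (adjusted p from 0.0511 to 0.0827). Col5a1 and Col5a2, chains of the type V collagen that is built into type I fibrils, rose by 0.41 ± 0.13 (SE, adjusted p = 0.0326) and 0.51 ± 0.15 (SE, adjusted p = 0.0216). The call of Col5a1 was lost in 7 of 18 fits without 1 library (adjusted p from 0.0581 to 0.0766) and that of Col5a2 in 2 (those that left out library 2 of WT CD or library 20 of Gαq ERTU).

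The other fibrillar genes did not pass. Col5a3 was at 15.7 to 44.1 CPM in WT and 14.9 to 57.7 in Gαq, with a difference of 0.36 ± 0.26 (SE, adjusted p = 0.384). Col27a1 (0.13 ± 0.15 SE, adjusted p = 0.581) and Col11a2 (0.01 ± 0.26 SE, adjusted p = 0.991) had values near 0. Col11a1, a chain of cartilage and of early fibrils, had one of the largest point estimates, 1.41 ± 0.55 (SE, adjusted p = 0.0778), with an interval of 0.27 to 2.56. Its counts were 1 read pair in each of WT CD libraries 2 and 4 but 63 in WT CD library 5 and 129 in Gαq CD library 8, both libraries with high Myl7. Gαq CD library 7 came next with 92 read pairs, at 0.532 CPM of Myl7.

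Basement membrane chains differed in their calls. Col4a1 (ENSMUSG00000031502, chr8:11198423-11312826, minus strand) and Col4a2 (ENSMUSG00000031503, chr8:11312805-11449287, plus strand), the chains of the common type IV protein, did not pass in any comparison. Col4a1 was at 524, 622, 595 and 800.5 CPM in WT CD, 778, 783, 579.8, 652 and 789 in WT ERTU, 891, 751, 499, 1112 and 612 in Gαq CD and 539, 778, 529.6 and 801 in Gαq ERTU. Col4a2 was at 376, 499.6, 452 and 601 CPM in WT CD, 542, 559, 432, 436 and 590.1 in WT ERTU, 674, 574, 337, 798 and 415 in Gαq CD and 388, 600.5, 371 and 533 in Gαq ERTU. The ranges of the groups lay over each other for both, and the log2 fold change by genotype was 0.08 ± 0.14 (SE, adjusted p = 0.735) for Col4a1, with an interval of -0.22 to 0.38, and 0.05 ± 0.15 (SE, adjusted p = 0.855) for Col4a2, with an interval of -0.27 to 0.37. Both directions turned without Gαq CD library 9.

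In contrast, Col4a3 (ENSMUSG00000079465, chr1:82586921-82722059, plus strand) and Col4a4 (ENSMUSG00000067158, chr1:82448423-82586849, minus strand), which form the second type IV network with Col4a5 and are best known from the kidney filter, were higher in Gαq. Col4a3 was at 6.69, 4.27, 4.69 and 7.09 CPM in WT CD, 5.94, 5.57, 5.49, 5.87 and 5.09 in WT ERTU, 12.4, 11.8, 13.1, 13.5 and 10.4 in Gαq CD and 5.18, 13.9, 14.2 and 12.3 in Gαq ERTU. Only Gαq ERTU library 16 lay within the WT range, and the other 8 Gαq libraries were above all WT libraries. Col4a4 was at 16.7, 14.3, 18.6 and 22.6 CPM in WT CD, 13.1, 13.99, 19.3, 14.8 and 13.7 in WT ERTU, 25.3, 26.1, 30.1, 36.5 and 28.0 in Gαq CD and 21.3, 29.9, 32.6 and 26.8 in Gαq ERTU. On each diet all Gαq libraries were above all WT libraries, and over both diets only WT CD library 5 exceeded the lowest Gαq library. The log2 fold change was 1.07 ± 0.15 (SE, adjusted p = 2.72e-05) for Col4a3 and 0.79 ± 0.11 (SE, adjusted p = 1.69e-05) for Col4a4, and neither call was lost in any of the 18 fits that left out 1 library or under the other settings. Col4a5 (ENSMUSG00000031274, chrX:141475385-141689234, plus strand) was at 70.5, 88.2, 59.4 and 87.5 CPM in WT CD, 72.4, 72.7, 66.1, 61.0 and 66.0 in WT ERTU, 106, 82.3, 87.3, 98.0 and 80.8 in Gαq CD and 70.0, 107, 80.6 and 83.4 in Gαq ERTU. Its rise was small, 0.29 ± 0.09 (SE, adjusted p = 0.0244). Col4a6, its partner on chromosome X, was at 7.497, 5.81, 3.99 and 15.6 CPM in WT CD, 4.80, 6.24, 5.27, 9.44 and 5.35 in WT ERTU, 5.35, 4.74, 15.1, 7.63 and 5.86 in Gαq CD and 7.62, 11.7, 8.53 and 14.7 in Gαq ERTU. The highest values were those of WT CD library 5, Gαq CD library 8 and Gαq ERTU library 20, and the difference of 0.35 ± 0.27 (SE, adjusted p = 0.401) did not pass.

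**Figure D3:**
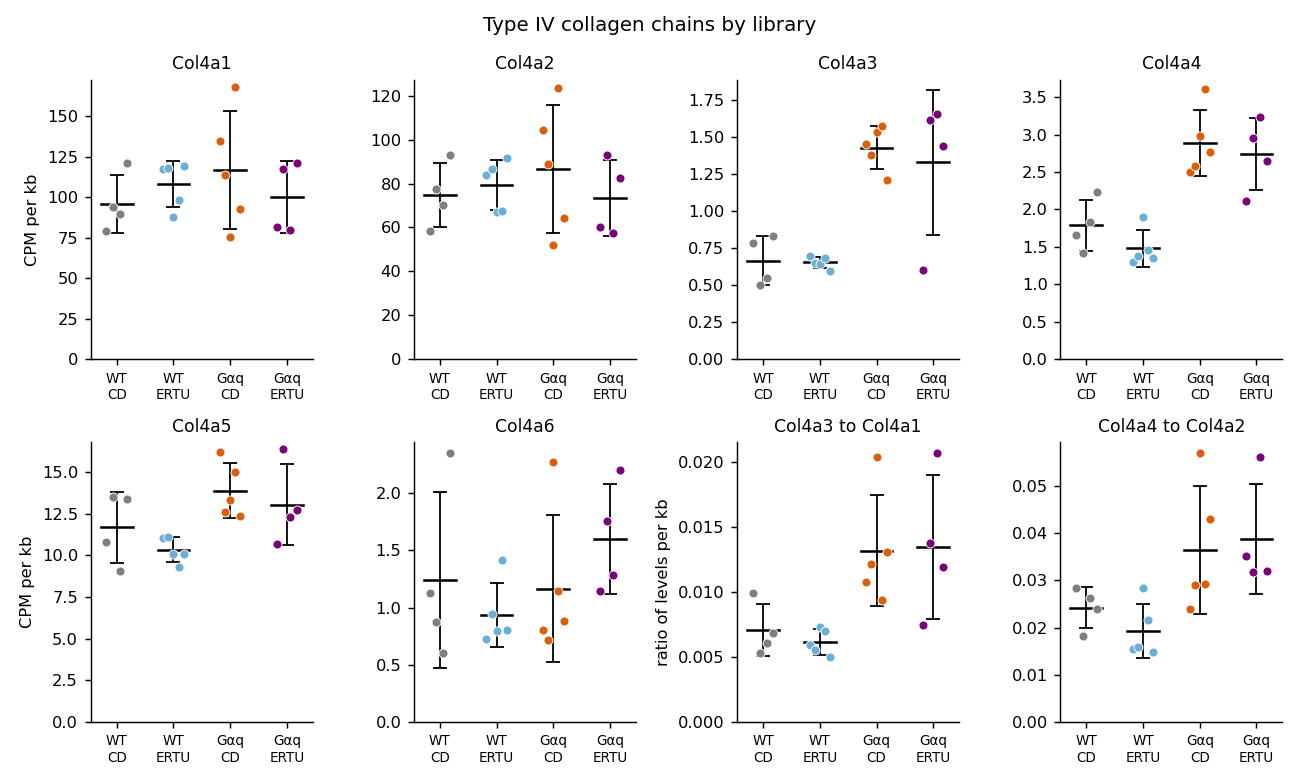
Type IV chains by library (CPM per kb, linear axes from 0), and the Col4a3 to Col4a1 and Col4a4 to Col4a2 level ratios. Points are libraries, bars the mean and SD of a group (n = 4 or 5). Col4a1 and Col4a2 overlap between genotypes, while Col4a3 and Col4a4 lie higher in Gαq, apart from Gαq ERTU library 16, which is within the WT range for Col4a3 and below WT CD library 5 for Col4a4.

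Ratios of chains within a library do not depend on its total. In all, 6 such ratios, chosen after the fold changes were known and so not independent of them, were compared by an exact permutation test of genotype within diet (2-sided, 15876 splits, smallest possible p of 0.000126). Per kb, Col4a3 was at 0.00499 to 0.00988 times the level of Col4a1 in WT and at 0.00743 to 0.0207 in Gαq, a 1.96-fold difference (exact permutation p = 0.000189, adjusted over the 6 ratios 0.00113). Col4a4 was at 0.0148 to 0.0284 times the level of Col4a2 in WT and at 0.0240 to 0.0571 in Gαq, 1.71-fold (exact permutation p = 0.00157, adjusted 0.00472). In every library Col4a3 and Col4a4 were far below their counterparts. Within pairs no ratio passed with all libraries: 1.03-fold for Col4a1 to Col4a2 (exact permutation p = 0.292), 1.18-fold for Col4a3 to Col4a4 (p = 0.123) and 0.95-fold for Col4a5 to Col4a6 (p = 0.791). Without Gαq ERTU library 16 the Col4a3 to Col4a4 ratio did pass, at 1.27-fold (exact permutation p = 0.00439), and no other ratio changed sides of the threshold without 1 library. Nor did Col1a1 to Col1a2 (1.12-fold, exact permutation p = 0.135). Within CD its mean was 0.431 ± 0.0895 in WT (SD, n = 4) and 0.538 ± 0.0305 in Gαq (SD, n = 5), and within ERTU 0.458 ± 0.0446 (n = 5) and 0.454 ± 0.0717 (n = 4).

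Both network genes were higher in Gαq. Col8a1 (ENSMUSG00000068196, chr16:57624258-57754737, minus strand), the α1 chain of type VIII collagen, was at 48.4, 43.1, 45.6 and 75.4 CPM in WT CD, 29.1, 40.3, 37.8, 40.7 and 46.8 in WT ERTU, 68.9, 111, 91.7, 114 and 55.2 in Gαq CD and 45.1, 61.2, 48.3 and 55.9 in Gαq ERTU. On CD 3 of 5 Gαq libraries were above all WT libraries, while the Gαq ERTU libraries overlapped with WT CD. The difference by genotype was 0.59 ± 0.14 (SE, adjusted p = 0.00571). Col8a2, its partner chain, was at 2.02, 0.570, 0.637 and 3.08 CPM in WT CD, 0.1799, 1.06, 0.494, 3.36 and 1.22 in WT ERTU, 2.27, 3.73, 9.29, 3.46 and 1.88 in Gαq CD and 2.50, 3.66, 2.43 and 2.07 in Gαq ERTU. Gαq CD library 8 stood far above the others of its group, and the call (1.23 ± 0.42 SE, adjusted p = 0.0409) was lost in 12 of 18 fits that left out 1 library.

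**Figure D4:**
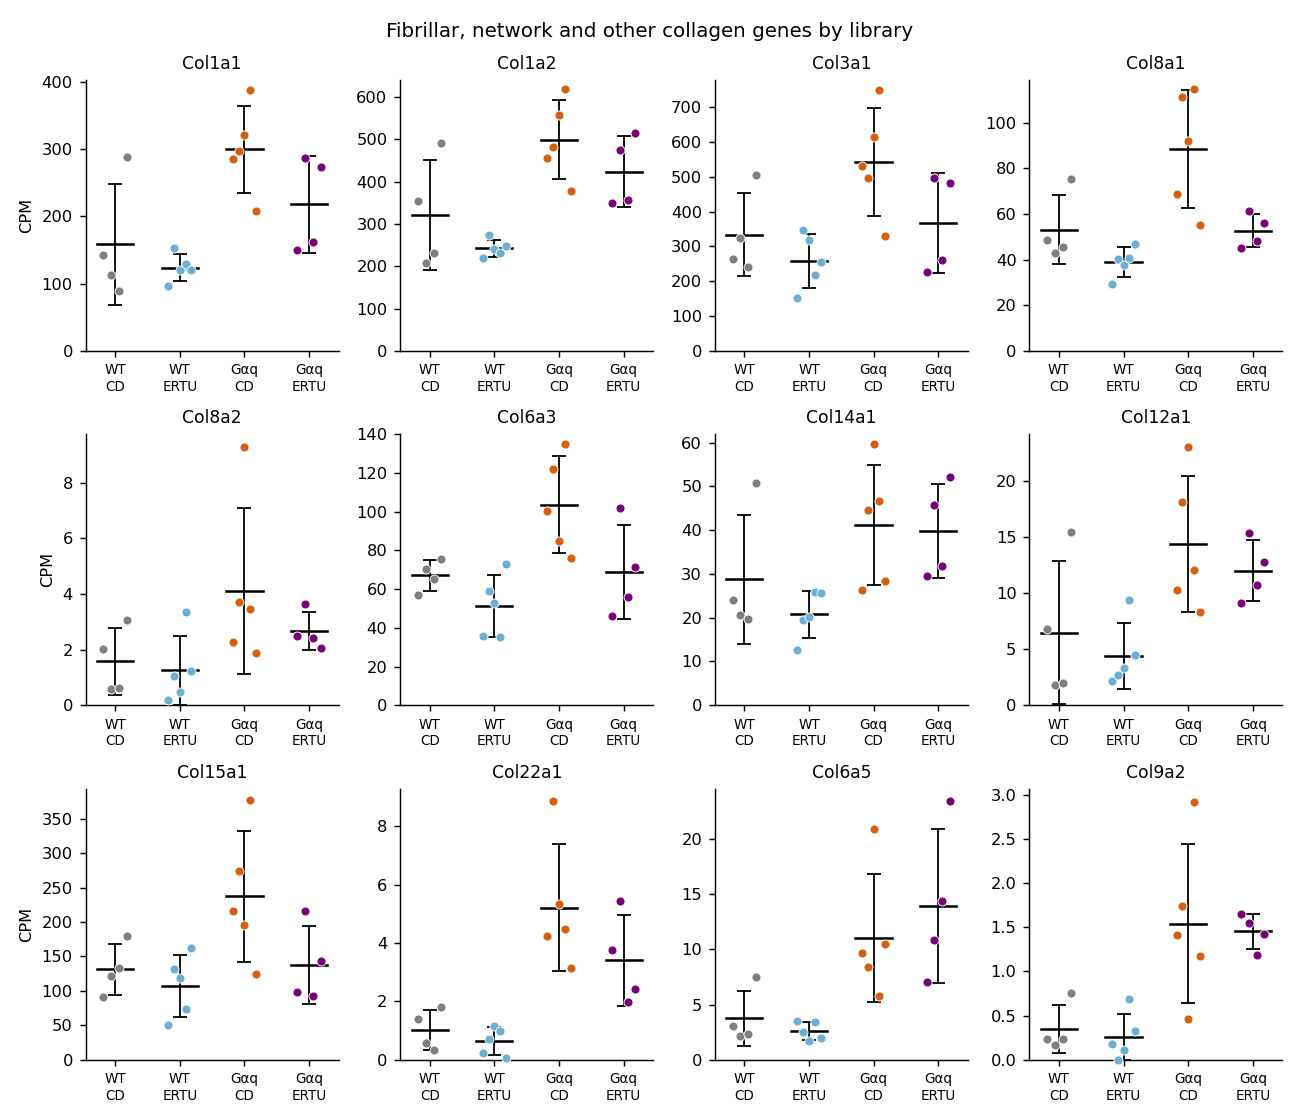
Fibrillar, network and other collagen genes by library (CPM, linear axes from 0), with the mean and SD of each group (n = 4 or 5). Gαq CD has the highest mean for the type I and III chains, Col8a1, Col6a3 and Col15a1. Col22a1, Col6a5 and Col9a2 are low in nearly all WT libraries and higher in Gαq on both diets.

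Among the beaded filament chains, Col6a1, Col6a2 and Col6a3, which form the common type VI protein, moved by similar amounts: 0.49 ± 0.14 (SE, adjusted p = 0.014), 0.59 ± 0.16 (SE, adjusted p = 0.0135) and 0.53 ± 0.16 (SE, adjusted p = 0.0233). Col6a2 (ENSMUSG00000020241, chr10:76595762-76623630, minus strand) was at 99.3, 108, 101 and 190.1 CPM in WT CD, 81.1, 128, 113, 90.9 and 123 in WT ERTU, 196, 203, 185, 303 and 137 in Gαq CD and 118, 192, 107 and 171 in Gαq ERTU. WT CD library 5 was again level with the Gαq libraries. Col6a1 (ENSMUSG00000001119, chr10:76708792-76726168, minus strand) was at 112, 126, 101 and 187 CPM in WT CD, 85.4, 121, 127, 111 and 112 in WT ERTU, 197, 184, 179.7, 258 and 143 in Gαq CD and 113, 197, 115 and 179 in Gαq ERTU, with the same library standing out among WT. Col6a3 (ENSMUSG00000048126, chr1:90765923-90843971, minus strand) was at 57.1, 70.6, 65.3 and 75.8 CPM in WT CD, 35.7, 58.9, 53.1, 35.3 and 72.8 in WT ERTU, 101, 122, 84.7, 135 and 75.9 in Gαq CD and 46.3, 102, 56.0 and 71.7 in Gαq ERTU. On CD every Gαq library was above every WT library, whereas on ERTU the groups overlapped. Col6a5 (ENSMUSG00000091345, chr9:105856078-105960643, minus strand), an α5 chain of low level, had a larger difference. It was at 3.06, 2.11, 2.37 and 7.47 CPM in WT CD, 3.48, 2.51, 1.70, 3.46 and 1.93 in WT ERTU, 9.65, 8.42, 20.9, 5.78 and 10.5 in Gαq CD and 7.07, 10.9, 14.3 and 23.4 in Gαq ERTU. The difference was 1.99 ± 0.30 (SE, adjusted p = 5.68e-05), and only WT CD library 5 lay above the lowest Gαq libraries. Col6a6 did not pass (0.25 ± 0.14 SE, adjusted p = 0.231).

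FACIT chains held the largest differences. Col22a1 (ENSMUSG00000079022, chr15:71795795-72034227, minus strand), a chain known from tissue junctions such as that of muscle and tendon, was at 1.38, 0.570, 0.347 and 1.82 CPM in WT CD, 0.240, 0.725, 1.15, 0.996 and 0.0644 in WT ERTU, 4.24, 8.86, 5.35, 4.47 and 3.14 in Gαq CD and 3.78, 5.43, 1.98 and 2.44 in Gαq ERTU. Every Gαq library was above every WT library, from 1.98 CPM upwards against 1.82 CPM at most, and the difference was 2.36 ± 0.35 (SE, adjusted p = 4.41e-05). The read pairs behind these values were 1 to 29 per WT library and 35 to 183 per Gαq library. Col9a2 (ENSMUSG00000028626, chr4:121039385-121055322, plus strand), a chain of cartilage type IX collagen, was at 0.231, 0.171, 0.232 and 0.753 CPM in WT CD, 0.1799, 0, 0.110, 0.682 and 0.322 in WT ERTU, 1.41, 1.74, 0.458, 2.92 and 1.17 in Gαq CD and 1.65, 1.55, 1.19 and 1.43 in Gαq ERTU. Counts were 0 to 13 read pairs in WT and 10 to 49 in Gαq, so that single values are imprecise, and the difference was 2.29 ± 0.41 (SE, adjusted p = 0.000363). Gαq CD library 8, the Gαq library with the most Myl7, was its lowest Gαq library.

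Col12a1 (ENSMUSG00000032332, chr9:79598991-79718831, minus strand), a FACIT chain of tendon and of tissue under load, was at 6.80, 1.77, 1.97 and 15.4 CPM in WT CD, 2.16, 2.67, 3.29, 9.44 and 4.45 in WT ERTU, 10.3, 18.1, 23.1, 12.1 and 8.29 in Gαq CD and 9.14, 15.4, 10.7 and 12.8 in Gαq ERTU. Values in WT ranged over a wide span, with WT CD library 5 and WT ERTU library 14 the highest, and the difference was 1.30 ± 0.35 (SE, adjusted p = 0.0109). Col14a1 (ENSMUSG00000022371, chr15:55307750-55520803, plus strand), a chain of the same kind that regulates fibril size, was at 23.9, 20.6, 19.8 and 50.8 CPM in WT CD, 12.7, 19.5, 20.2, 25.9 and 25.6 in WT ERTU, 26.4, 44.7, 59.6, 46.6 and 28.5 in Gαq CD and 29.6, 45.7, 31.9 and 52.1 in Gαq ERTU. Without WT CD library 5 all other WT libraries were below all Gαq libraries, and the difference was 0.73 ± 0.20 (SE, adjusted p = 0.014). Col16a1 also rose (0.38 ± 0.12 SE, adjusted p = 0.0281), with 8 of 18 fits without 1 library losing the call. Col20a1 was the one member with a value below 0, -0.06 ± 0.18 (SE, adjusted p = 0.857).

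Multiplexins carry sugar chains and lie in basement membrane zones. Col15a1 (ENSMUSG00000028339, chr4:47208161-47313167, plus strand), a chain of muscle and capillary basement membrane zones, was at 90.6, 121, 133 and 180.2 CPM in WT CD, 50.8, 132, 118, 74.2 and 162 in WT ERTU, 215, 274, 196, 377 and 124 in Gαq CD and 97.7, 216, 92.9 and 144 in Gαq ERTU. Gαq CD library 9 was the highest and WT ERTU library 11 the lowest, and the difference by genotype did not pass (0.61 ± 0.24 SE, adjusted p = 0.0796). Col18a1, the precursor of endostatin, did not pass either (0.38 ± 0.17 SE, adjusted p = 0.135). Of the transmembrane chains Col23a1 rose (0.73 ± 0.23 SE, adjusted p = 0.0261), and Col13a1 (0.08 ± 0.23 SE, adjusted p = 0.853) and Col25a1 (0.18 ± 0.25 SE, adjusted p = 0.663) did not pass. The remaining chains did not pass: Col7a1 of anchoring fibrils (0.44 ± 0.23 SE, adjusted p = 0.202), Col26a1 (0.78 ± 0.37 SE, adjusted p = 0.144) and Col28a1 (0.48 ± 0.29 SE, adjusted p = 0.272).

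Summed per kb, the fibrillar chains were at 105 to 268 CPM per kb over the 9 WT libraries (median 139) and at 153 to 358 over the 9 Gαq libraries (median 264). The basement membrane sums of the genotypes overlapped widely, 152 to 233 in WT (median 188) and 148 to 313 in Gαq (median 220), and Col4a1 and Col4a2 make up most of it. The network sum was 5.74 to 15.5 in WT and 9.42 to 23.2 in Gαq, and that of the other chains 69.6 to 175 in WT and 107 to 264 in Gαq. As a share of all collagen, basement membrane chains held 42.4% ± 5.995 in WT (SD, n = 9) and 33.0% ± 4.22 in Gαq (n = 9), and fibrillar chains 32.4% ± 4.16 and 38.8% ± 3.35. Basement membrane chains were thus the larger class by mean in WT and fibrillar chains in Gαq. Gαq CD library 8 had the lowest basement membrane share (22.7%) and the highest fibrillar share (47.2%). Without WT CD library 5 the highest WT sum was 168 for fibrillar, 224 for basement membrane, 9.95 for network and 119 for other chains. These sums are descriptions and were not tested. With lengths over all annotated exons in place of the principal transcript, basement membrane chains were the larger class in every group, with 38.8% against 32.5% in Gαq CD and 42.7% against 30.6% in Gαq ERTU.

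**Figure D5:**
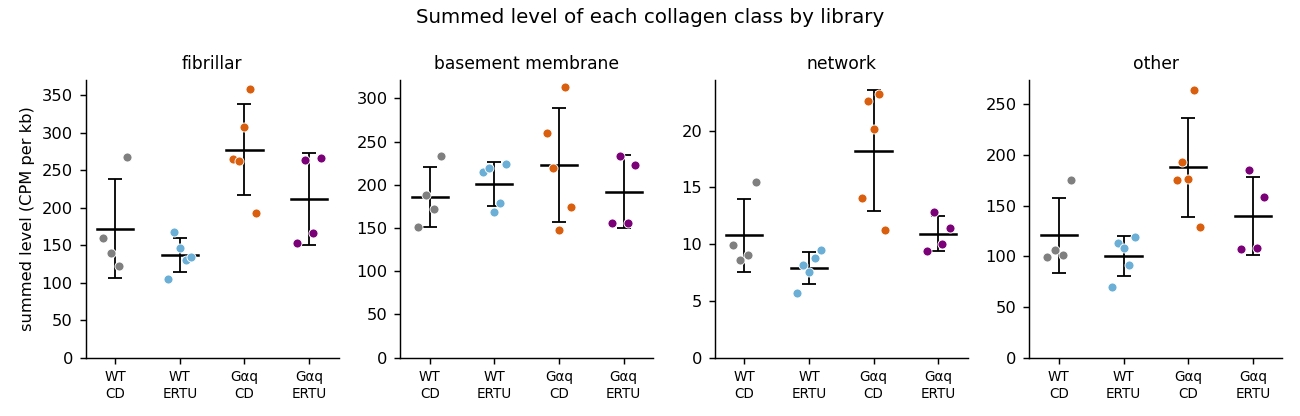
Summed level of each collagen class (CPM per kb, linear axes from 0) in each library, with the mean and SD of each group (n = 4 or 5). All 4 sums have their highest mean in Gαq CD, and the basement membrane sums of the 4 groups overlap.

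Next, the genotypes were compared within each diet. On CD 7 of 36 genes were higher in Gαq and 0 lower, 19.4% against 4.00% of all genes higher and 4.10% lower. They were Col4a3 (1.11 ± 0.22 SE, adjusted p = 0.003), Col4a4 (0.70 ± 0.15 SE, adjusted p = 0.00659), Col22a1 (2.34 ± 0.50 SE, adjusted p = 0.00508), Col6a5 (1.57 ± 0.42 SE, adjusted p = 0.0221), Col9a2 (2.14 ± 0.60 SE, adjusted p = 0.0301), Col8a1 (0.73 ± 0.20 SE, adjusted p = 0.0286) and Col1a1 (0.92 ± 0.28 SE, adjusted p = 0.0465). Col9a2, with a mean of 5.11 read pairs in WT and 27.8 in Gαq, became a member through Gαq, so that the choice of members favours its call. In 4 genes, Col4a3, Col4a4, Col6a3 and Col22a1, every Gαq library was above every WT library, as in 4.70% of all genes. The count of 7 called genes rested on single libraries: it was 16 without WT CD library 5, adding among others Col1a2, Col3a1, Col6a1, Col6a2 and Col14a1, but 3 without any one of WT CD libraries 1, 2 and 4 and 4 without Gαq CD library 7 or 9. Without both WT CD library 5 and Gαq CD library 9 it was 13, with 1144 calls over all genes in either direction. Calls over all genes on CD, in either direction, were 1318 with all libraries and 1390 without WT CD library 5. They were 788, 851 and 1143 without WT CD libraries 1, 2 and 4, and 934 and 1077 without Gαq CD libraries 7 and 9. The call of Col1a1 was lost in 13 of 18 fits without 1 library (adjusted p from 0.0511 to 0.154), that of Col8a1 in 6, Col9a2 in 5 and Col6a5 in 4.

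On ERTU also 7 genes were higher and 0 lower, against 3.93% of all genes higher and 4.24% lower. Of them, 5 were called on CD too: Col4a3 (1.03 ± 0.21 SE, adjusted p = 0.00436), Col4a4 (0.88 ± 0.15 SE, adjusted p = 0.000892), Col22a1 (2.37 ± 0.51 SE, adjusted p = 0.005), Col6a5 (2.41 ± 0.41 SE, adjusted p = 0.000863) and Col9a2 (2.44 ± 0.59 SE, adjusted p = 0.0122). The other 2 were Col1a2 (0.81 ± 0.20 SE, adjusted p = 0.0148) and Col14a1 (0.94 ± 0.29 SE, adjusted p = 0.049), of which Col14a1 lost its call in 10 of 18 fits without 1 library and Col1a2 in 1, that without Gαq ERTU library 20 (adjusted p = 0.0631). Without WT CD library 5 the count was 10, and calls over all genes in either direction were 1427, against 1330 with it. Groups did not overlap in 8 genes (Col1a2, Col4a4, Col6a5, Col9a2, Col14a1, Col16a1, Col22a1 and Col23a1), as in 5.40% of all genes. Col9a2, which the choice of members favours, is among the 7 called and among these 8. The comparisons on CD and on ERTU contrast different libraries, but they come from the same fit and share its estimate of the spread. They are therefore not independent. The difference between them is the interaction of genotype and diet, which passed in 0 of 36 genes (0 of 16270 overall), with 0 members at an unadjusted p under 0.05 (1.92% of all genes). The smallest p values belonged to Col13a1, at 0.76 ± 0.43 (SE, unadjusted p = 0.0924, adjusted p = 1), and Col4a6, at 0.85 ± 0.51 (SE, unadjusted p = 0.113, adjusted p = 1).

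Last, ERTU was compared with CD. By diet over both genotypes 0 of 36 genes passed (0 of 16270 overall). At an unadjusted p under 0.05 there were 9 members, all lower on ERTU (4.31% of all genes were lower at that p). DESeq2 and voom called 0 members as well, here and in the 3 other comparisons of ERTU with CD and of their interaction. The log2 fold change was below 0 in 31 of 36 members, against 50.5% of all genes, and the median was -0.24 over the members and -0.0017 over all genes. By class the median was -0.32 for fibrillar, -0.07 for basement membrane, -0.54 for network and -0.25 for other chains. Since members vary together within a library, these counts are not independent observations.

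Col8a1 had the smallest p, with -0.60 ± 0.14 (SE, unadjusted p = 0.000453, adjusted p = 0.606) by diet. Its 4 Gαq ERTU values (45.1 to 61.2 CPM) were below 4 of the 5 Gαq CD values (55.2 to 114 CPM), and its WT ERTU values (29.1 to 46.8) overlapped the WT CD values (43.1 to 75.4). Within Gαq the difference was -0.75 ± 0.20 (SE, unadjusted p = 0.00153, adjusted p = 0.653), and within WT -0.45 ± 0.20 (SE, unadjusted p = 0.0379, adjusted p = 1). The other 8 were Col6a3 (-0.49 ± 0.16 SE, unadjusted p = 0.00611, adjusted p = 0.639), Col27a1 (-0.39 ± 0.15 SE, unadjusted p = 0.0157, adjusted p = 0.639), Col3a1 (-0.47 ± 0.20 SE, unadjusted p = 0.0287, adjusted p = 0.639), Col1a2 (-0.32 ± 0.14 SE, unadjusted p = 0.0324, adjusted p = 0.639), Col15a1 (-0.54 ± 0.24 SE, unadjusted p = 0.0345, adjusted p = 0.639), Col6a1 (-0.30 ± 0.14 SE, unadjusted p = 0.0437, adjusted p = 0.64), Col1a1 (-0.41 ± 0.19 SE, unadjusted p = 0.044, adjusted p = 0.64) and Col6a2 (-0.35 ± 0.16 SE, unadjusted p = 0.0445, adjusted p = 0.64). No adjusted p came under 0.6.

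Within Gαq, where 1 of 16270 genes (0.00615%, lower) and 0 members passed, 3 members had an unadjusted p under 0.05, all lower (4.09% of all genes): Col6a3 (-0.59 ± 0.23 SE, unadjusted p = 0.0199, adjusted p = 0.653) and Col15a1 (-0.79 ± 0.33 SE, unadjusted p = 0.0296, adjusted p = 0.653) besides Col8a1. The Gαq ERTU libraries fell into high and low values for many members. For Col1a1, libraries 17 and 20 were at 286 and 273 CPM and libraries 16 and 18 at 149.6 and 161 CPM, and the same libraries were high and low for Col3a1, Col6a1, Col6a2, Col6a3, Col15a1 and Col4a1. The spread of a gene was estimated over all libraries together. On the log2 scale the interval of the diet difference for Col1a1 was -1.03 to 0.12 in Gαq and -0.925 to 0.217 in WT. Within WT, where 0 genes overall passed, Col8a1 was the 1 member with an unadjusted p under 0.05 (lower, as in 1.44% of all genes), and Col1a2 came next (-0.41 ± 0.20 SE, unadjusted p = 0.0571, adjusted p = 1). No member had groups without overlap between ERTU and CD in either genotype.

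Markers of other cells moved with some of these results. For scale, 9.72% of all genes tested were higher by genotype and 9.92% lower. Of 10 fibroblast markers 6 were higher in Gαq and 0 lower, with a median log2 fold change of 0.54, and their summed level was 2810 to 5450 CPM in WT CD, 3070 to 5730 in WT ERTU, 3900 to 6260 in Gαq CD and 4590 to 5610 in Gαq ERTU. Of 10 markers of activated fibroblasts 4 were higher (median 0.74, summed 90.5 to 362 CPM in WT and 218 to 562 in Gαq). Of 10 endothelial markers 0 were higher and 3 lower (median -0.23, summed 2450 to 3590 CPM in WT and 2040 to 3100 in Gαq). Among 6 mesothelial and epicardial markers 4 were higher (median 2.42, summed 4.56 to 16.0 CPM in WT and 6.76 to 48.4 in Gαq). Of 10 heart muscle cell markers 1 was higher and 4 lower (median -0.0883, summed 75500 to 115000 CPM in WT and 76800 to 102000 in Gαq), and of 10 smooth muscle and pericyte markers 1 was higher and 2 lower (median -0.12, summed 1900 to 2270 CPM in WT and 1470 to 2120 in Gαq). By diet 0 markers of these lists passed, with a median log2 fold change of -0.0246 for fibroblast and -0.24 for activated fibroblast markers, beside -0.24 for the collagen genes. Of 5 fat markers tested 0 passed by diet, with a median of 1.09. Their part in the collagen results was not tested.

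Some libraries also held genes of tissue next to the ventricle wall. Myl7, an atrial muscle gene, was at 78.2 CPM in WT CD library 5, 78.5 in WT ERTU library 14, 138 in Gαq CD library 8 and 92.5 in Gαq ERTU library 20, the highest of each group, and at 0 to 33.7 CPM in the other 14. The same 4 libraries were high for Dkk3 (97.8, 88.3, 204 and 93.1 CPM). The first 3 of them had the highest Comp, a matrix gene of tendon and cartilage, of their group (56.6, 31.9 and 96.1 CPM). All Gαq ERTU libraries were high for both genes, not only library 20. Libraries 16, 17 and 18 were at 77.0, 69.2 and 56.0 CPM of Dkk3. Comp was at 49.9, 39.1, 38.2 and 39.9 CPM in libraries 16, 17, 18 and 20. The cartilage genes Acan and Matn1 were at or near 0 in every library (at most 1.10 and 0.0579 CPM). Of 7 cartilage markers 4 could be tested and 1 was higher in Gαq (median log2 fold change 0.84). Of 6 atrial markers 5 were tested, with a median log2 fold change by genotype of 1.65. Of these, 1 was higher in Gαq, Nppa, which the stressed ventricle also makes. The summed level of the list was 200 to 919 CPM in WT and 10700 to 21300 in Gαq. Of 6 valve and endocardial markers 1 was higher (median 0.39, summed 173 to 392 CPM in WT and 259 to 590 in Gαq). Their part in the collagen results was not tested. Without the library of each group highest in Myl7, 20 genes were called by genotype, of which 18 were among the 20 given above. Col3a1 and Col6a3 were lost and Col11a1 and Col18a1 gained. On CD there were then 13 higher and 1 lower (Col11a2), and on ERTU 12 higher. Calls over all genes in either direction were then 2886 by genotype, 1090 on CD and 1421 on ERTU.

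The genes that make, process and receive collagen were followed as 4 lists. By genotype 16 of 48 tested genes were higher and 3 lower, against 9.72% and 9.92% of all genes, and by diet 0 passed. Of 19 genes of chain modification and folding, 8 were higher and 1 lower, with a median of 0.17. P3h3, a prolyl 3-hydroxylase family member, was at 23.6 ± 4.32 CPM in WT and 35.8 ± 4.99 in Gαq (SD, n = 9 each), a log2 fold change of 0.59 ± 0.10 (SE, adjusted p = 0.000225). P3h4, a related protein of the lysyl hydroxylation complex, went the other way, 38.3 ± 7.95 against 22.6 ± 4.20 CPM (-0.74 ± 0.12 SE, adjusted p = 0.000206). P4hb, the shared subunit of prolyl 4-hydroxylase, rose slightly (0.29 ± 0.05 SE, adjusted p = 0.000362). P4ha1, P4ha3, P3h1, P3h2, Crtap and Ppib were the other 6 higher genes.

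Of 12 genes of export and propeptide cleavage 4 were higher and 2 lower (median 0.22). Pcolce, which enhances removal of the fibrillar C-propeptide, was at 59.1 ± 10.4 CPM in WT and 102 ± 19.8 in Gαq (0.74 ± 0.10 SE, adjusted p = 1.86e-05). Adamts2, the main N-propeptide protease of fibrillar chains, rose (0.49 ± 0.13 SE, adjusted p = 0.0119), and its relative Adamts3 fell by 0.57 on the log2 scale (adjusted p = 0.0153). Sparc and Creb3l1 were the other higher genes and Tll2 the other lower one. The 6 crosslinking genes were those of the lysyl oxidase family and Pxdn. Loxl3 (0.53 ± 0.11 SE, adjusted p = 0.00112) and Loxl2 (0.47 ± 0.14 SE, adjusted p = 0.0199) were higher. Lox, Loxl1, Loxl4 (0.62 ± 0.22 SE, adjusted p = 0.05) and Pxdn (-0.26 ± 0.13 SE, adjusted p = 0.171) did not pass. Of 11 receptor and uptake genes Cspg4, a proteoglycan that binds type VI collagen (0.50 ± 0.12 SE, adjusted p = 0.00416), and Mrc2, an uptake receptor for collagen fragments (0.34 ± 0.11 SE, adjusted p = 0.0277), were higher. On CD 7 of the 48 genes were higher and 1 lower, against 4.00% and 4.10% of all genes. On ERTU 4 were higher and 1 lower, against 3.93% and 4.24% of all genes.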

How the data were processed

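RNA was sequenced from frozen left ventricle after poly(A) selection. Per the labels and the study's methods, the authors aligned read pairs to mm10 with STAR 2.6.0c and counted uniquely aligned proper pairs per nuclear-encoded Ensembl gene with featureCounts (Subread 1.6.2). The deposited count table holds these raw counts, and its 18 columns carry a series-wide number that was not linked to the replicate numbers of the labels. A second deposited table, of variance-stabilized values by DESeq2 1.23.10 per the labels, was not used here. Of 55450 gene IDs 55190 (99.5%) matched GENCODE M21 (GRCm38), the source of symbols, positions and transcript lengths.

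Counts were tested in R 4.3.3 with edgeR 4.0.16 (filterByExpr, 16270 genes; TMM factors of 0.925 to 1.069; quasi-likelihood F test). Genotype and diet were the terms of an additive model, and the other 5 comparisons were contrasts of the group means. Both fits used all libraries, with a shared estimate of the spread per gene. Adjustment was by Benjamini-Hochberg over all 16270 genes (threshold 0.05). Genes left out held 0.0906% of counts. Levels are CPM with TMM factors, divided by kb of the principal transcript where genes are compared. DESeq2 1.42.0, voom (limma 3.58.1), other scaling and filters and leaving out libraries were the alternatives. In counts simulated for Gαq on CD over 16270 genes, 168 of 200 genes changed by 2-fold (84%) were recovered with 9 false calls. The changed genes were drawn from those with a mean above 1 CPM. This recovery does not cover members of lower level or smaller differences. SE and intervals of fold changes are from the edgeR fit of counts, and depth limits members with few read pairs.

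Members, classes and lists were chosen with earlier results of these data known. Values per library are given for the 3 highest chains of each class per kb, up to 10 called genes per comparison by adjusted p (the 2 of smallest p where none passed), and both chains of the type IV pairs, and for each pathway list the 3 genes of smallest adjusted p by genotype are named.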

Additional observations from a re-analysis of the deposited data

Results flagged for a closer look

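Of 116 sets of 4 or 5 values, 9 held a library that stood apart from its group by Dixon's ratio (the gap to the nearest library over the range of the group), where chance gives about 1 in 20, or 5.8 sets. WT CD library 5 was the highest of its group in 5 of them: Col8a1 (75.4 against 48.4 CPM, ratio 0.834), Col6a2 (190.1 against 108 CPM, ratio 0.907), Col9a2 (0.753 against 0.232 CPM, ratio 0.896), Col14a1 (50.8 against 23.9 CPM, ratio 0.867) and the summed level of the other chains (175 against 107 CPM per kb, ratio 0.900). Gαq CD library 8 was the highest of its group in 3: Col8a2 (9.29 against 3.73 CPM, ratio 0.750), Col4a6 (15.1 against 7.63 CPM, ratio 0.722) and the fibrillar share of collagen (47.2% against 38.1%, ratio 0.906). WT ERTU library 13 was the highest of its group for Col4a4 (19.3 against 14.8 CPM, ratio 0.730). WT CD library 5 and Gαq CD library 8 are also the libraries of their groups with the most Myl7, 78.2 and 138 CPM. Whether Myl7 and these values are linked was not tested.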

How the results depend on the processing

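By genotype the count of collagen genes called was 14 to 22 over the fits without 1 library and 19 to 22 under the other settings. On CD (7 genes) it was 3 to 16 without 1 library, 14 under voom with sample quality weights, 13 without WT CD library 5 and Gαq CD library 9, and 14 without the library of each group highest in Myl7. On ERTU (7 genes) it was 5 to 10 without 1 library, 11 with only the 2 groups compared, and 11 and 12 in those same pairs of exclusions, which were chosen after seeing the data. The counts by diet, of ERTU in WT and in Gαq, and of the interaction were 0 in every fit run. Calls over all genes, in either direction, also shifted. By genotype they were 3196 with all libraries, 2812 to 3458 without 1 library and 3910 under voom. On CD they were 1318, 788 to 1414 and 1734, and on ERTU 1330, 946 to 1696 and 2755. Without WT CD library 5 and Gαq CD library 9 they were 1144 on CD and 1386 on ERTU. With only the 2 groups compared they were 1251 on ERTU. The cause of these shifts was not tested. Values that changed sign were all near 0 and not called with all libraries. Without 1 library the log2 fold change by genotype ranged from -0.0050 to 0.14 for Col4a1, from -0.0349 to 0.11 for Col4a2, from -0.34 to 0.0829 for Col11a2, from -0.13 to 0.0257 for Col20a1 and from -0.0213 to 0.20 for Col13a1, and on CD from -0.48 to 0.43 for Col4a6. Col11a2 by genotype was also -0.0009 under DESeq2, -0.14 under voom and -0.30 without the libraries highest in Myl7. Col4a6 on CD was 0.44 without WT CD library 5 and Gαq CD library 9 and 0.0254 without the libraries highest in Myl7. The Col4a5 to Col4a6 ratio (log2 Gαq minus WT) ranged from -0.22 to 0.0707 without 1 library, and the Col4a3 to Col4a4 ratio from 0.18 to 0.35. Of the genotype calls, Col8a2 was lost in 12 fits without 1 library, Col3a1 in 9, Col16a1 in 8, Col5a1 in 7 and Col4a5, Col5a2, Col6a3 and Col23a1 in 2 each, and the other 12 calls in none. No paired analysis was possible because library numbers run over the whole series, so no number recurs in another group.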
